A study of Mus musculus with 12 samples.

Results

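Levels of 10 mouse genes of bone morphogenetic protein (BMP) signalling were examined in the embryonic heart, out of 40800 genes counted. They are the ligand genes Bmp4, Bmp5, Bmp6 and Bmp7, the response genes Id1, Id2, Id3 and Id4, and the inhibitory Smad genes Smad6 and Smad7. They were chosen by gene symbol, with 1 row of the count table per gene, and all 10 passed the filter on low counts. The tissue was heart ventricle at embryonic day 12.5, sequenced as bulk RNA in 6 control libraries and 6 libraries of Wnt gain of function, meaning raised activity of the Wnt pathway. The labels give the genotypes only as control and Wnt gain of function. The allele, the Cre driver and its cell type, the strain and the number of embryos in a library do not appear in the labels, and replicate libraries are not tied to separate animals, so p-values measure the spread between libraries.

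BMP ligands are secreted dimers that bind type I and type II serine/threonine kinase receptors. The receptors phosphorylate Smad1, Smad5 and Smad9, which enter the nucleus with Smad4. Id genes are direct targets and encode helix-loop-helix proteins without a DNA-binding region, which hold E proteins away from DNA. Smad6 and Smad7 are targets too, and their products dampen the receptors in a feedback loop. In the developing heart, BMP signals pattern the outflow tract and atrioventricular canal, drive formation of the cushions that become valves, and support growth of the ventricular wall.

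None of the 10 genes passed the test between the groups. Bmp4 was nearest to it, with 24.0 ± 10.1 CPM (read counts scaled to a common library size) in control and 34.9 ± 5.32 in Wnt gain-of-function libraries (mean ± SD, n = 6 per group). Over all 14774 genes tested with edgeR's quasi-likelihood test, 0.501% had a Benjamini-Hochberg adjusted p under 0.05, 0.433% higher and 0.0677% lower in Wnt gain of function, so a count of 0 among 10 members lies near that background. The count of members called was also 0 with the replicate number as a block (0.372% of tested genes called), with limma-voom (0.0406%) and with the 4 libraries of a set that stood apart left out (0.0135%). At an unadjusted p under 0.05 there was 1 member, Bmp4, against 6.3% of all tested genes, and DESeq2 called 0 members. The members' median log2 fold change (Wnt gain of function against control) was 0.04, with 6 above 0 and 4 below, and the median of all tested genes was 0.00. The groups overlapped for all 10 members, while 0.46% of tested genes had no overlap. The authors' deposited table likewise lists 0 of the 10 at an adjusted p under 0.05, where 0.13% of its 27743 genes were, with log2 fold changes of 0.67 for Bmp4 and 0.34 for Id2 as its largest.

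Deposited counts per library summed to 10130088 to 17526325 in control and 12127026 to 17184662 in Wnt gain of function, and the members' own reads over all 12 libraries ran from 289 for Bmp6 to 76858 for Id2. Of 5 Wnt readout genes, Axin2, Notum and Rnf43 were called higher, by log2 fold changes of 2.62, 4.84 and 2.14 (edgeR adjusted p = 0.0145, 0.0095 and 0.0095), while Nkd1 and Lef1, at 1.99 and 1.38, missed the threshold (0.0573 and 0.335). The Axin2 call was lost with the replicate number as a block (edgeR adjusted p = 0.125). All 3 calls were lost with limma-voom (adjusted p = 0.0982, 0.178 and 0.0504), with the 3 closest pairs of libraries summed (edgeR, 0.220, 0.208 and 0.161) and without the 4 libraries that stood apart (edgeR, 0.443, 0.347 and 0.148), at log2 fold changes of 1.80 to 4.67. Wnt gain-of-function library 5 stood near the controls at these genes, with 3.77 CPM of Axin2, where controls reached 4.13. Libraries were also cut into 3 sets by clustering their deviations from the group means over all tested genes. The number of sets was fixed at 3, and group differences were removed beforehand, so the sets could not mirror the groups. Each set held 2 control and 2 Wnt gain-of-function libraries. Set 1 held controls 1 and 6 with Wnt gain-of-function libraries 5 and 6, set 2 controls 2 and 3 with Wnt gain-of-function libraries 1 and 2, and set 3 controls 4 and 5 with Wnt gain-of-function libraries 3 and 4. No label names these sets. Deviations correlated at r = 0.463 to 0.605 between libraries of set 2 and at 0.362 to 0.492 in set 3. Set 1 was loose, at -0.0754 to 0.134. Its Wnt gain-of-function library 5 was closer to control 4 of set 3 (r = 0.17) than to any library of set 1. All 8 of 8 cardiomyocyte markers were present, summing to 30530 to 40890 CPM in control and 29370 to 37700 in Wnt gain-of-function libraries. Atrial markers (8 of 8) were present as well, at 2722 to 5308 and 3682 to 4867 CPM. Myl7 and Myl4 made up most of the atrial sum, with control means of 2034 and 1902 CPM. The highest of the other atrial markers was Nr2f2, with a control mean of 124.5 CPM.

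**Figure D1:**
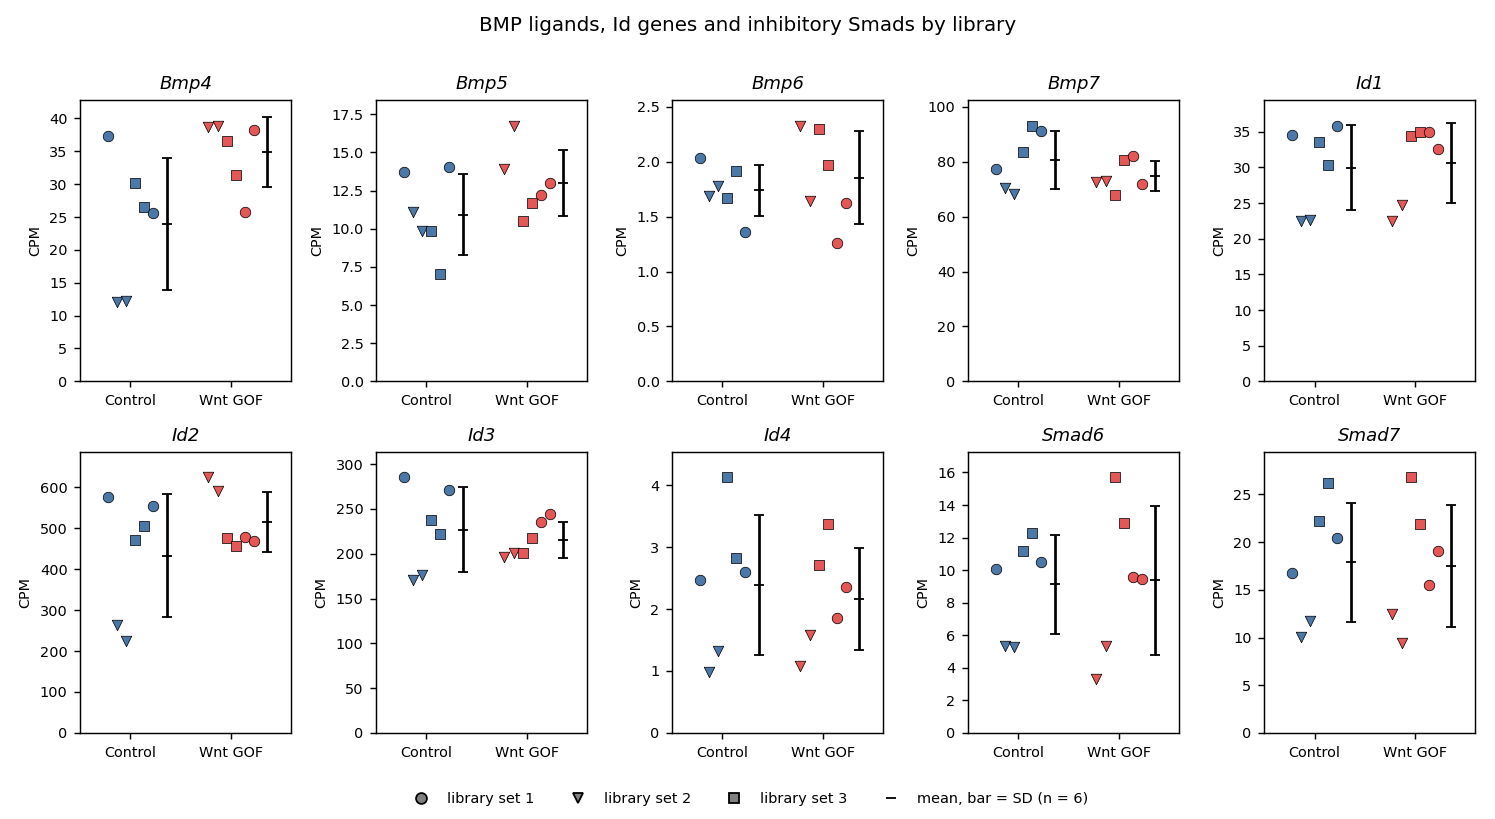
CPM of the 10 genes in each library (y axes start at 0), with control in blue and Wnt gain of function in red, marker shape for the library set and the mean with its SD beside each group. The groups overlap in every panel, and the 2 lowest Bmp4 values, 12 and 12.3, are set 2 controls.

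Among the ligands, levels per length differed widely. Scaled to the exon length of the GENCODE M21 annotation, Bmp7 stood at 20.1 ± 2.62 CPM per kb in control libraries, Bmp4 at 10.7 ± 4.48, Bmp5 at 2.72 ± 0.656 and Bmp6 at 0.446 ± 0.0596 (SD, n = 6). Bmp2, the ligand of the atrioventricular canal, lay between Bmp4 and Bmp5 at 4.59 ± 1.52, and Bmp10, a trabecular ligand, between Bmp5 and Bmp6 at 2.05 ± 0.294. In control libraries the range of Bmp7 lay above that of Bmp4, and the range of Bmp10 above that of Bmp6, while Bmp4 overlapped Bmp2, Bmp2 overlapped Bmp5 and Bmp5 overlapped Bmp10. In Wnt gain-of-function libraries the order was the same, but Bmp7, at 16.9 to 20.4 CPM per kb, overlapped Bmp4, at 11.5 to 17.3, and Bmp4 lay above Bmp2. The authors' annotation release is not given, so their gene models can differ in length.

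Bmp4, which signals from the outflow tract and its surroundings, ranged from 12 to 37.3 CPM in control libraries with a median of 26.1, and from 25.8 to 38.9 CPM in Wnt gain-of-function libraries with a median of 37.4. The upper end was shared by both groups, and controls 2 and 3 were low. Its log2 fold change was 0.54 ± 0.251 (SE), with a 95% interval from 0.00 to 1.08 and an edgeR p of 0.0487 (adjusted p = 0.784). Within set 2, Bmp4 stood at 12 and 12.3 CPM in the controls against 38.7 and 38.9 in the Wnt gain-of-function libraries, a ratio of means of 3.20. The ratio was 1.02 in set 1 and 1.2 in set 3. With set 2 left out, an alternative chosen after the data were seen, the log2 fold change of Bmp4 was 0.15 ± 0.144 (edgeR adjusted p = 0.997). The group difference in Bmp4 thus rested largely on set 2, in which both controls were low.

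Bmp5, a ligand that acts together with Bmp7 in the early myocardium, ranged from 7.05 to 14.0 CPM in control (median 10.5) and from 10.5 to 16.8 in Wnt gain-of-function libraries (median 12.6). Its log2 fold change was 0.25 ± 0.160 (edgeR adjusted p = 0.997). Bmp5 was higher in both Wnt gain-of-function libraries than in both controls of sets 2 and 3, with ratios of 1.47 and 1.31, but lower in set 1, with a ratio of 0.908. Bmp7 was likewise apart within sets, higher in set 2 (ratio 1.05) and lower in set 3 (0.84). Such separation between so few libraries thus says little about Bmp5. With the library sets as a block, Bmp5 reached an unadjusted edgeR p of 0.041 (adjusted p = 0.362), which still missed the threshold.

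Bmp7, the most abundant ligand of the list, had the narrowest spread. It ranged from 68.2 to 93.2 CPM in control (median 80.5) and from 68.0 to 81.9 in Wnt gain-of-function libraries (median 72.8), with a log2 fold change of -0.11 ± 0.0872. The 95% interval on the linear scale was 0.815-fold to 1.05-fold, so a rise or fall of Bmp7 by 1.5-fold lies outside it. Bmp6, a close relative of Bmp5 and Bmp7, was low, at 1.36 to 2.04 CPM in control (median 1.73) and 1.26 to 2.33 in Wnt gain-of-function libraries (median 1.81). With 17 to 31 reads of Bmp6 per library, its interval of 0.798-fold to 1.43-fold is wider.

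**Figure D2:**
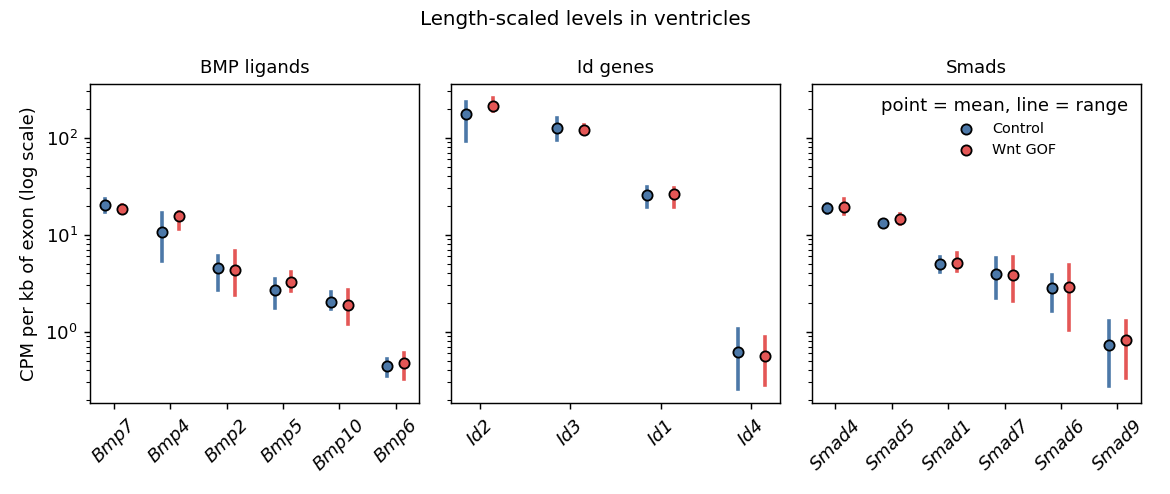
CPM per kb of exon on a log axis for BMP ligands, Id genes and Smads, with control in blue and Wnt gain of function in red; points are means and lines run from the lowest to the highest of 6 libraries. Bmp7 and Id2 lead their families in both groups, and Bmp6, Id4 and Smad9 are the lowest.

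Id2 and Id3 were the most abundant members. Per length, Id2 stood at 177 ± 61.7 CPM per kb in control and 211 ± 29.8 in Wnt gain-of-function libraries, and Id3 at 127 ± 26.6 and 120 ± 11.2. Id1 followed at 25.8 ± 5.14 and 26.4 ± 4.84, and Id4, better known from neural tissue, at 0.621 ± 0.293 and 0.562 ± 0.215. The ranges of Id2 and Id3 overlapped in control but not in Wnt gain-of-function libraries, and the ranges of Id3, Id1 and Id4 stood apart from one another in both groups.

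Id2 ranged from 225.2 to 575.7 CPM in control, with a median of 488, and from 456.4 to 624.8 CPM in Wnt gain-of-function libraries, with a median of 476.6. The medians lay close together, and controls 2 and 3 were again far below the rest. Its log2 fold change was 0.25 ± 0.215 (edgeR adjusted p = 0.999). In set 2 the controls had 264 and 225 CPM of Id2 and the Wnt gain-of-function libraries 625 and 591, a ratio of 2.48, whereas the ratio was 0.837 in set 1 and 0.955 in set 3. With set 2 left out, the log2 fold change of Id2 turned to -0.16 ± 0.0833 (edgeR adjusted p = 0.882).

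Bmp4 and Id2 were the 2 members for which both Wnt gain-of-function libraries of set 2 were at least 2-fold above both set 2 controls. This held for 149 of all 14774 tested genes, or 1.01%. In set 1 the same was so for 11 of all tested genes and in set 3 for 84. There were 0 members in sets 1 and 3, which with so few genes is no result about the members. The set 2 count is a description of 4 libraries grouped by their own expression, with no test. Several marker lists also differed between set 2 and the other libraries. Markers of the outflow tract and second heart field (8 of 8 found) summed to 51.8 to 56.3 CPM in the set 2 controls and to 48.6 to 50.7 in the set 2 Wnt gain-of-function libraries, against 104 to 137 and 68.9 to 109 elsewhere. Atrial markers (8 of 8) stood at 2720 to 2800 and 3680 to 3690 CPM in set 2, against 4240 to 5310 and 4360 to 4870 elsewhere. The 5 Wnt readouts summed to 14.5 to 14.8 CPM in the set 2 controls and to 95.2 to 105 in the set 2 Wnt gain-of-function libraries, against 36.3 to 51.9 and 40.6 to 175 elsewhere. Like Bmp4 and Id2, the sums of the Wnt readouts and of the atrial markers were thus lowest in the set 2 controls. Within set 2, macrophage markers (9 of 9) stood at 118 to 123 CPM in control and 140 to 147 in Wnt gain of function, and atrioventricular canal markers (8 of 8, Bmp2 among them) at 103 and at 116 to 120. Epicardial (10 of 10), endocardial and endothelial (10 of 10), erythroid (8 of 8) and foregut (8 of 8) sums were also higher in both set 2 Wnt gain-of-function libraries than in both controls. Cardiomyocyte sums were lower, at 37000 to 37700 against 40200 to 40900 CPM, as were cushion mesenchyme sums (8 of 8), at 2000 to 2030 against 2290 to 2330. No marker of these lists was at 0 over the libraries, and the part of these markers in the result was not tested. Each sum follows the most abundant genes of its list. The count filter was passed by 5 of 8 outflow and 2 of 8 foregut markers. In bulk tissue, fewer cells of a type and less RNA per cell cannot be told apart.

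By correlation of log2 CPM deviations from the group means over the 12 libraries, the genes most like Bmp4 among 14159 compared were Pdgfc (Pearson r = 0.96, Spearman rho = 0.91), Tmem45a (0.92 and 0.90) and Dclk1 (0.91 and 0.74). Those most like Id2 were Clu (0.96 and 0.84), Tmem45a (0.96 and 0.92) and Mpzl2 (0.95 and 0.86). The libraries share the sets described above, so these values describe the ranking only and carry no test.

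Id1, Id3, Id4, Smad6 and Smad7 followed another pattern. For these 5 genes, the 4 lowest of the 12 libraries were exactly the 4 libraries of set 2, control and Wnt gain of function alike, which was so for 6.68% of all tested genes. For Id3 the margin was narrow, since Wnt gain-of-function libraries 2 and 3 both had 201 CPM after rounding. The pattern was not particular to these members. In set 2, Smad9 stood at 1.49 to 3.05 CPM and Sox9 at 44.7 to 56.1, below all other libraries. Msx1 and Tbx2 were also lowest there, while Bmpr1a was not. The sets were formed from the expression of these same libraries, so the pattern carries no test. Id1 stood at 22.5 and 22.7 CPM in the set 2 controls and at 22.4 and 24.7 in the set 2 Wnt gain-of-function libraries, against 30.4 to 35.9 in the other controls and 32.6 to 35.0 in the others of Wnt gain of function. Set 2 was also lowest in the outflow and atrial marker sums given above. The same held for epicardial markers (305 to 336 CPM in set 2, 357 to 418 elsewhere), erythroid markers (9670 to 12900 and 13600 to 89400), nerve and neural crest markers (18 to 20.4 and 21.4 to 35) and foregut, lung and liver markers (1.21 to 1.35 and 2.37 to 22.3). Set 2 was highest in cardiomyocyte markers, at 37000 to 40900 CPM against 29400 to 33300 elsewhere. Endocardial and endothelial markers (10 of 10), from cells in which Id1, Smad6 and Smad7 are known to be expressed, summed to 861 to 921 CPM in set 2 controls and 934 to 956 in set 2 Wnt gain-of-function libraries, against 802 to 860 and 882 to 954 elsewhere. The part of these markers in the pattern was not tested. Of the nerve and neural crest markers, 3 of 8 passed the count filter, and of the foregut markers 2 of 8.

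**Figure D3:**
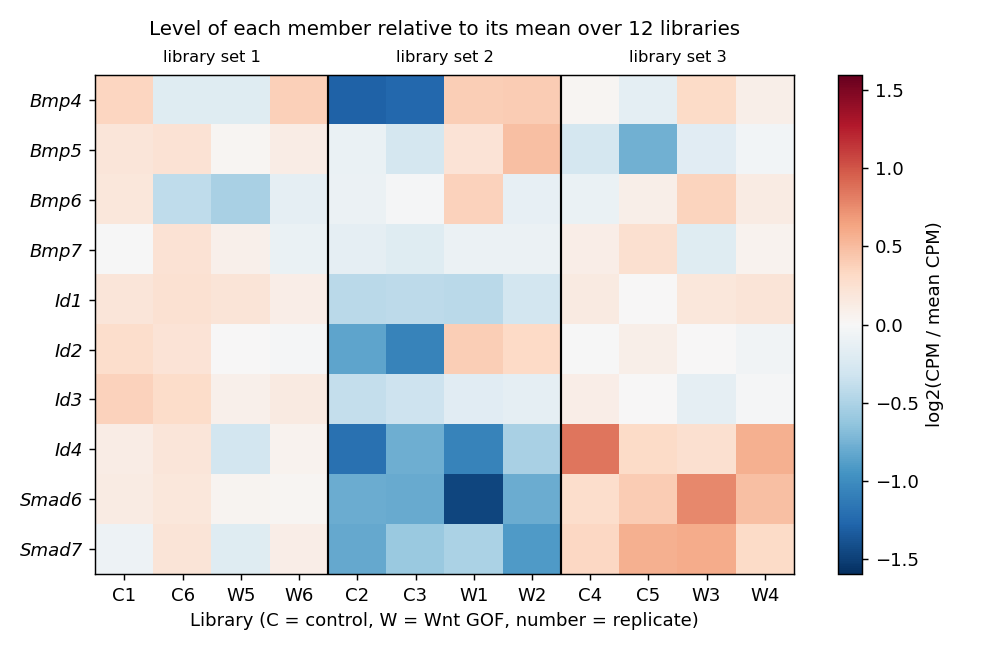
Level of each member in each library as log2 of its CPM over its mean CPM of the 12 libraries, ordered by library set (C, control; W, Wnt gain of function). In set 2 the columns C2 and C3 are low for Bmp4 (-1.30 and -1.26) and Id2 (-0.843 and -1.07) while W1 and W2 are not. Id1, Id3, Id4, Smad6 and Smad7 are lowest in all 4 columns of set 2. For Id3 the margin is narrow, with -0.176 and -0.142 in W1 and W2 against -0.139 in W3 of set 3.

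Promoter windows of RefSeq (build GRCm38.p6, 250 bases before to 50 after the start) were found for 7 members, Bmp4, Bmp5, Bmp6, Id2, Id3, Id4 and Smad6. Bmp7, Id1 and Smad7 had no entry. The windows were searched on both strands for GGCGCC, a GC-rich motif bound by Smad1 and Smad5, and for the Smad palindrome GTCTAGAC, which contains the short Smad site GTCT. The first was present in Id2 and Id4, 2 of 7, against 11.87% of all 32851 promoter windows, and the second in Smad6 alone, 1 of 7, against 0.21%. GTCT was in 6 of 7, against 87.98%, and the TCF/LEF motif CTTTGAT, the site of the Wnt pathway's own factors, in 0 of 7, against 3.73%. A match describes the letters of the window and shows no binding. The 3 windows with a match to GGCGCC or GTCTAGAC are shown 5' to 3' on the gene's strand, with the motif in capitals. They are Id2 at chr12:25096093-25096342 (minus strand), Id4 at chr13:48260866-48261115 (plus strand) and Smad6 at chr9:64022056-64022309 (minus strand).
Id2: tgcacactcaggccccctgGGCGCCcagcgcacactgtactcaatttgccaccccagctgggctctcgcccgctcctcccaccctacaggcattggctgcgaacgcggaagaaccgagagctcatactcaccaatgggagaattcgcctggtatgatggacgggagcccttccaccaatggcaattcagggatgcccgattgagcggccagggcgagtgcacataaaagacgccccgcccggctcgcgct
Id4: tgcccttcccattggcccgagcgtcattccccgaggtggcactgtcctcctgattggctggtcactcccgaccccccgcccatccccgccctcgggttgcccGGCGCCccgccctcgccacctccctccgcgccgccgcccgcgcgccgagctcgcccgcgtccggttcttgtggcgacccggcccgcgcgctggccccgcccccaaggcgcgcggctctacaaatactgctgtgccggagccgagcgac
Smad6: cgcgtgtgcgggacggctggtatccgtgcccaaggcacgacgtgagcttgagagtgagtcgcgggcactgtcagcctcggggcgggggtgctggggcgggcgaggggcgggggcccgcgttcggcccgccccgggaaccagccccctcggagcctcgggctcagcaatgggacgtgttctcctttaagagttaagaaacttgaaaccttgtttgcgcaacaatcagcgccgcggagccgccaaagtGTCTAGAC
In Id2 the motif began 231 bases before the start, in Id4 148 bases before it, and in Smad6 the palindrome spanned the start itself. Id2 was high and Id4 low in the set 2 Wnt gain-of-function libraries, and any part of the motif in these levels was not tested.

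Between the groups, Id1 ranged from 22.5 to 35.9 CPM in control (median 31.97) and from 22.4 to 35.0 in Wnt gain-of-function libraries (median 33.5), a log2 fold change of 0.03 ± 0.147. Id3 ranged from 170.2 to 285.5 (median 229.8) and from 196 to 244.1 CPM (median 209.4), a log2 fold change of -0.07 ± 0.121. The linear 95% intervals were 0.825-fold to 1.27-fold for Id1 and 0.795-fold to 1.14-fold for Id3. Id4 ranged from 0.992 to 4.13 (median 2.54) and from 1.09 to 3.38 CPM (median 2.11), with an interval of 0.561-fold to 1.47-fold around 0.907-fold. For each of the 3 genes the edgeR adjusted p was 0.999, and the groups overlapped. The Wnt gain-of-function range lay inside the control range for Id3 and Id4.

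Smad6, the inhibitory Smad that acts mainly on BMP receptors, ranged from 5.28 to 12.3 CPM in control (median 10.3) and from 3.34 to 15.7 CPM in Wnt gain-of-function libraries (median 9.50). Smad7, which also blocks the TGF-beta receptors, ranged from 10.02 to 26.2 (median 18.6) and from 9.44 to 26.8 CPM (median 17.3). Both varied strongly inside each group and hardly between them. Log2 fold changes were 0.04 ± 0.336 for Smad6 and -0.03 ± 0.272 for Smad7 (edgeR adjusted p = 0.999 for both), with linear intervals of 0.623-fold to 1.70-fold and 0.652-fold to 1.47-fold. Both were highest in set 3, where Smad6 reached 11.2 to 12.3 CPM in controls and 12.9 to 15.7 in Wnt gain-of-function libraries, and Smad7 22.2 to 26.2 and 21.9 to 26.8. Within each set the ratio of group means lay between 0.815 and 1.22 for Smad6 and between 0.931 and 1.01 for Smad7.

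The biological coefficient of variation that edgeR estimates within groups was 0.397 for Smad6, 0.36 for Id4, 0.325 for Smad7, 0.301 for Bmp4 and 0.263 for Id2, against a median of 0.16 over tested genes. Smad6 varied more than 96.5% of tested genes, Id4 more than 95.1% and Smad7 more than 92.8%. Bmp7, at 0.119, was steadier than most. With the library sets as a block, the SE of the Smad7 log2 fold change fell from 0.272 to 0.0983, that of Smad6 from 0.336 to 0.124 and that of Id1 from 0.147 to 0.0647, with log2 fold changes of -0.04, -0.02 and 0.04. These sets came from the same libraries, so such errors can be too small.

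Around the members, 61 further pathway genes were listed, of which 49 were tested, 11 fell below the count filter and 1 was not found. EdgeR called 0 of the 49, against 0.501% of all tested genes. An unadjusted p under 0.05 was found in edgeR for 6 of the 49, against 6.3% of all tested genes. Log2 fold changes were above 0 for 27 of the 49, with a median of 0.04. DESeq2 called 3 of the 61, Sostdc1 and Msx2 higher and Hey1 lower, where it called 0.93% of all genes it tested. Of 10 receptors tested, 0 had an unadjusted p under 0.05 in edgeR. Bmpr1a, the main type I receptor of the myocardium, was at 156.8 ± 16.9 and 151.8 ± 11.4 CPM, Bmpr2 at 137.3 ± 8.4 and 141 ± 14.7, and the co-receptor Eng had a log2 fold change of 0.15 ± 0.110. Of 8 Smads and their regulators, 0 reached an unadjusted p under 0.05, and Smad5 was nearest, at 97.5 ± 5.14 and 108 ± 10.4 CPM (edgeR adjusted p = 0.835). Smad9, both a transducer and a target, had a log2 fold change of 0.17 ± 0.368. The type I receptor Acvr1 and the Smad regulators Skil and Smurf1 had log2 fold changes of 0.07, -0.12 and -0.08. The E proteins that Id proteins bind, Tcf3, Tcf4 and Tcf12, had log2 fold changes of 0.11, 0.21 and 0.05.

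**Figure D4:**
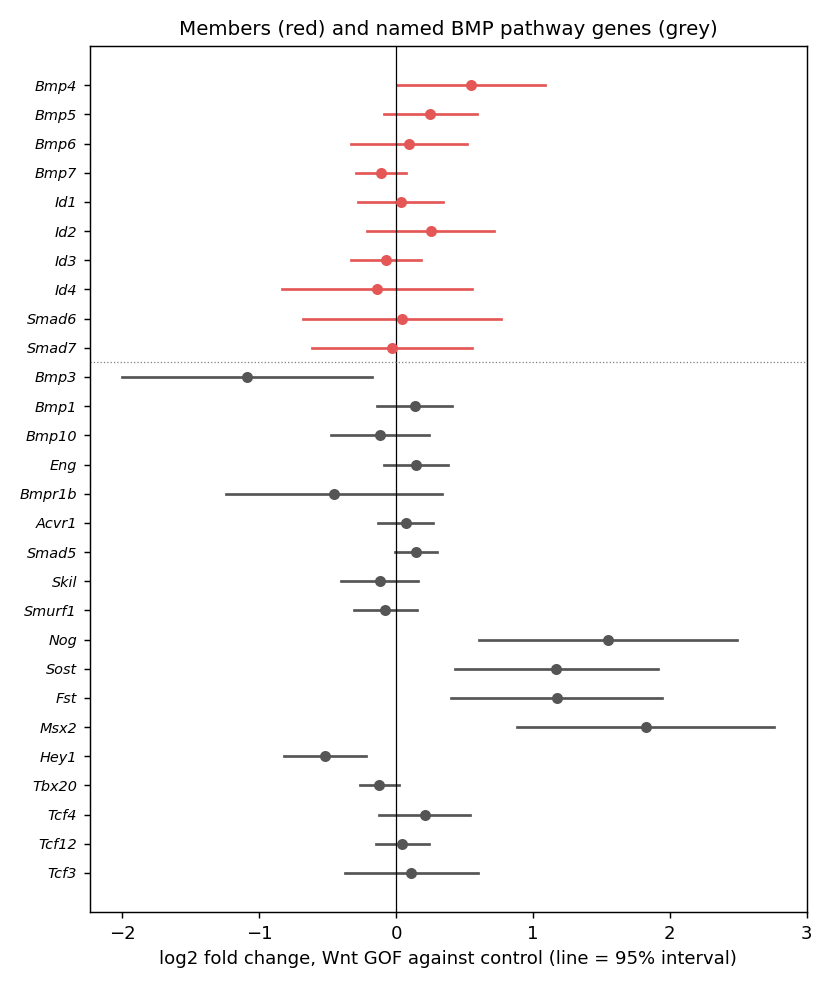
Log2 fold change, Wnt gain of function against control, with its 95% interval for the 10 members (red) and the named pathway genes (grey). All member intervals but that of Bmp4, which starts at 0.00, cross 0, and Nog, Sost, Fst and Msx2 lie furthest to the right.

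Genes listed as BMP antagonists or modulators made up 3 of the 6 pathway genes at an unadjusted p under 0.05. Of 11 tested from this list, Bambi, Crim1 and Tll1 among them, 3 had an unadjusted p under 0.05 in edgeR. The share over all tested genes was 6.3%. All 3 had higher means in Wnt gain of function. The list was drawn up with earlier results of these data known, so this share carries no test. Nog, which encodes noggin and binds BMP ligands directly, ranged from 0.198 to 1.51 CPM in control (median 0.662) and from 0.962 to 3.82 in Wnt gain-of-function libraries (median 1.89). Fst, which encodes follistatin, an activin and BMP binder, ranged from 1.21 to 6.63 (median 4.21) and from 4.14 to 12.1 CPM (median 8.95). Sost, which encodes sclerostin, better known as a Wnt inhibitor, ranged from 1.33 to 3.18 (median 1.78) and from 2.25 to 7.82 CPM (median 4.09). In all 3 the groups overlapped, with library 5 of Wnt gain of function the lowest of its group for Nog and Fst. Log2 fold changes were 1.55 ± 0.443 for Nog, 1.17 ± 0.359 for Fst and 1.17 ± 0.348 for Sost, and the edgeR adjusted p-values of 0.235, 0.318 and 0.281 missed the threshold. With the library sets as a block, where 2% of tested genes were called, edgeR called Nog (adjusted p = 0.0148) and Sost (0.0409) but not Fst (0.144). The sets came from the same libraries, so these calls are no separate support. In the other alternatives neither Nog nor Sost was called.

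Sostdc1, a secreted antagonist of both BMP and Wnt signals, did not enter the test and is named because of its values. It had 15 reads in all 6 control libraries together and 1575 in the 6 Wnt gain-of-function libraries. Controls lay between 0 and 0.619 CPM, and 5 of the Wnt gain-of-function libraries between 13.6 and 30.9, while library 5 of that group had 8 reads, or 0.592 CPM. The count filter asked for about 0.772 CPM in 6 libraries, so the low value of library 5 kept the gene out. Without the filter, where 0.393% of tested genes were called, edgeR called Sostdc1 higher, at 6.50 ± 0.971 on the log2 scale (adjusted p = 0.0237), as did DESeq2 (6.64 ± 0.908, adjusted p = 8.83e-10). Without library 5, where edgeR called 1.19% of tested genes, the log2 estimate was 6.76 ± 0.435 (adjusted p = 6.82e-07). It also entered the edgeR test, and was called, with any 1 control library left out (adjusted p 0.0208 to 0.0388), since the filter then asked for fewer libraries. Sostdc1 was picked by its values. In the fits with a library left out it passed the filter only through its high libraries. Its p-values thus describe the gene and are no separate support.

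**Figure D5:**
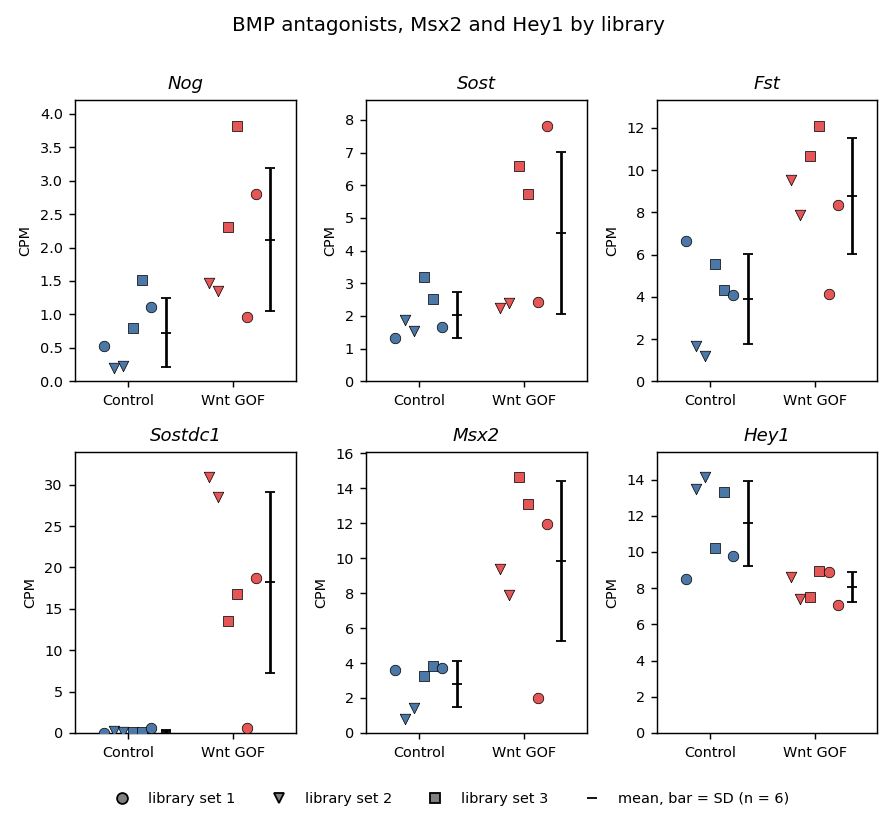
CPM by library (y axes start at 0) of Nog, Sost, Fst and Sostdc1, listed as antagonists or modulators, and of Msx2 and Hey1. Control is in blue and Wnt gain of function in red, with marker shape for the library set and the mean with its SD. The Sostdc1 panel shows 5 Wnt gain-of-function libraries from 13.6 to 30.9 CPM and 1 at 0.592, beside controls of at most 0.619.

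Other known BMP targets did not move as a group. Of 12 tested, 2 had an unadjusted p under 0.05 in edgeR, in opposite directions, against 6.3% of all tested genes. The median log2 fold change of the 12 was 0.04. Msx2, a homeobox gene of cushions and outflow that Wnt signals can also induce, ranged from 0.793 to 3.83 CPM in control (median 3.44) and from 2.00 to 14.6 in Wnt gain-of-function libraries (median 10.7). Library 5 gave the 2.00, inside the control range, and the other 5 lay above all controls. Its log2 fold change was 1.82 ± 0.436 (edgeR adjusted p = 0.133), while DESeq2 called it (adjusted p = 0.0224), as did edgeR when library 5 was left out (0.00229). Leaving out library 5 removed the only Msx2 value of its group inside the control range, so that call is no separate support. Hey1, a repressor shared with Notch signalling, ranged from 8.49 to 14.1 (median 11.8) and from 7.09 to 8.92 CPM (median 8.05). The log2 difference was -0.52 ± 0.140 with an adjusted p of 0.186 in edgeR. Hey1 was called lower by DESeq2 (0.0432), and also by edgeR once the library sets formed a block (0.032). With that block 2% of tested genes were called. The sets came from the same libraries, so the block call of Hey1 is no separate support. Msx1, the close relative of Msx2, had a log2 fold change of -0.12 ± 0.352, and Tbx20, a cardiac T-box gene, of -0.12 ± 0.0678 (edgeR adjusted p = 0.934).

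Without Wnt gain-of-function library 5, the members' log2 fold changes were 0.62 for Bmp4, 0.27 for Bmp5, 0.18 for Bmp6 and -0.14 for Bmp7. They were -0.01, 0.27, -0.10 and -0.10 for Id1 to Id4, 0.03 for Smad6 and 0.00 for Smad7. The edgeR adjusted p was lowest for Bmp4, at 0.544, and 0 members were called without library 5.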

How the data were processed

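Bulk RNA-seq of 12 mouse ventricle libraries, 6 per group, was analysed from the authors' tables. Subread, featureCounts and edgeR are named in the submitters' processing notes; versions, strand setting, genome build and annotation: not given in the sources used here. The deposited table holds whole-number read counts per Ensembl gene, per the file headers, with GC percent as an annotation that was not used. Of its 41422 rows, 622 repeats of a gene ID were left out, which left 40800 genes. A second table deposited by the authors holds log2 fold changes, p-values, a log-odds score and log2 CPM, and a fold column that was not used.

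Counts were tested in R 4.3.3 with edgeR 4.0.16 (filterByExpr with a minimum count of 10, TMM scaling, robust quasi-likelihood test, group as the only term, Benjamini-Hochberg over 14774 genes, called under 0.05). SEs were obtained from the fold change and its F statistic. CPM uses TMM-scaled library sizes, and log2 CPM a prior count of 2. The test was checked on counts simulated as independent libraries. The library sets were not simulated, so that check does not cover them. Alternatives were other scalings and filters, DESeq2 1.42.0, limma-voom (limma 3.58.1), blocks for replicate number or library set, summed pairs, and libraries left out. Named genes are the members, the 3 of each pathway list with the lowest p, 5 Wnt readouts and the 3 genes most like the leading ligand and the leading Id or Smad member. Sostdc1, Bmpr2, Bmpr1a, Bmp2, Bmper, Msx1, Smad9, Bambi, Crim1, Tll1, Sox9 and Tbx2 were named outside this rule. So were the atrial markers Myl7, Myl4 and Nr2f2. The members and lists were chosen with earlier results of these data known.

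Without strand information, reads of overlapping antisense genes cannot be told apart. In GENCODE M21, 1878 of 4025 exon bases of Bmp5 lie opposite to another gene, as do 224 of 3900 of Bmp6, 171 of 3849 of Id4 and 89 of 2248 of Bmp4.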

Additional observations from a re-analysis of the deposited data

How the results depend on the processing

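In all 23 alternatives 0 members were called in either direction, and the lowest adjusted p of any member was 0.362 (Bmp5, library sets as a block). Bmp4, Bmp5 and Bmp6 stayed above 0 and Bmp7 and Id3 below 0 throughout, while the fold changes of the other 5 changed sign in at least 1 alternative, that of Id2 only with library set 2 left out. All genes called higher and lower, 64 and 10 in edgeR, were 168 and 25 with DESeq2, 3 and 3 with limma-voom, 97 and 12 without the count filter, 195 and 100 with library sets as a block, 0 and 1 with the closest pairs summed, and 0 and 2 with library set 2 left out. At an unadjusted p under 0.05, 600 genes remained for the summed pairs and 882 without set 2. Other pathway genes called higher and lower were 2 and 1 with DESeq2, 2 and 1 when the library sets formed a block, and 1 and 0 without the filter. Leaving out 1 library at a time gave 34 to 149 higher and 4 to 28 lower genes, and 0 to 2 pathway genes higher, with the top value of each without Wnt gain-of-function library 5 and 34 to 37 higher without library 1, 2 or 4 of that group. The replicate number as a block gave 47 higher and 8 lower genes and 0 members. Same-numbered libraries correlated at -0.377 to 0.463, and 3 of 12 were closest to their own number in the other group. The labels do not say whether the numbers pair libraries, and these correlations, shaped by the library sets, cannot settle it. Read depth limits Bmp6 and Id4 most, at 289 and 367 reads over all libraries.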

Other observations

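Among further ligands, Bmp3, an antagonistic family member, ranged from 0.397 to 1.69 CPM in control (median 1.14) and from 0.0637 to 0.962 CPM in Wnt gain-of-function libraries (median 0.55). Its log2 fold change was -1.09 ± 0.431 (edgeR adjusted p = 0.579), from 130 reads in all. Bmp1, a procollagen protease in spite of its name, and the trabecular ligand Bmp10 had log2 fold changes of 0.14 ± 0.130 and -0.12 ± 0.170. Bmp2 was lowest in library set 2 of both groups, with 9.62 and 9.53 CPM in controls and 9.94 and 8.50 in Wnt gain-of-function libraries, as Smad6 and Smad7 were.

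Bmpr1b, a type I receptor of low level in the heart, stood at 2.22 to 3.59 CPM in control and at 0.762 to 4.59 CPM in Wnt gain-of-function libraries. Its 2 lowest values, 0.762 and 0.854, were Wnt gain-of-function libraries 2 and 1, and its highest, 4.59, was library 5. The log2 fold change was -0.45 ± 0.370 (edgeR adjusted p = 0.999). Bmper, a secreted BMP modulator of endothelium, ranged from 10.3 to 27.3 CPM in control and 7.30 to 20.4 in Wnt gain-of-function libraries, with a log2 fold change of -0.38 ± 0.293.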
